A study of Mus musculus with 2 samples.

Results

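Serpins are a superfamily of proteins built on 1 common fold. They were taken from the main expression table by gene symbol, as every symbol made of Serpin, a clade letter from a to i and a number, leaving out Serping1, the C1 inhibitor of complement. This gave 62 of the 22740 genes. No threshold on a value decided membership, but the family was selected on earlier knowledge of its RPKM in these same libraries, so its levels and its differences between the libraries are given as a description and support nothing further. The tissue was whole uterus of C57BL/6 mice, labelled WT, collected at pregnancy day 4 from 2 animals with 1 library each, and no treatment, transgene or other group was present. The animals are called uterus 1 and uterus 2. With 1 group no condition was compared, and what can be asked is which serpins the day 4 uterus expressed, at what level, and how far 2 animals differed.

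Most serpins inhibit serine proteases by a suicide mechanism. An exposed reactive centre loop serves as bait, the protease cuts it, and the serpin then springs into a new shape that traps the enzyme. The residues of the loop decide which protease is met, and some family members have lost inhibition and act as chaperones, hormone carriers or secreted signals. In the uterus, serpins are known as regulators of matrix breakdown by the plasminogen system and of the granule proteases of leukocytes, both of which are active around implantation.

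Values are the authors' RPKM, that is, reads scaled by transcript length and library size, so levels can be set side by side between genes. Whole reads behind each value were recovered from the RPKM steps, and summed to 3883523 in uterus 1 and 4314485 in uterus 2. These sums are estimates, because the reads of some genes had no unique answer. They exceed the totals by which the RPKM were scaled, 3834174 and 4256101. The smallest possible reads summed to 3487503 and 3874963. Differences between the libraries are given as log2 of uterus 2 over uterus 1 after adding 0.1 RPKM, a scale that understates the change of low genes. They were set against counting error by a two-sided exact binomial test on the recovered reads of all 15164 genes with at least 6 reads, with Benjamini-Hochberg adjustment. That test compares 2 libraries, not conditions, and holds no spread between animals. All members of the stroma, smooth muscle, epithelium and endothelium marker lists were at 1 RPKM or more in both uteri, and of the 4 decidua markers Dcn and Alpl were detected in both while Prl8a2 and Prl3c1 were listed at 0. Rpl26, a ribosomal protein gene that cells in general use, was also listed at 0 in both, so a listed 0 is not read as absence.

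The uterus expressed a small set of serpins, led by the collagen chaperone Serpinh1. Of the 62 serpins, 16 (25.8%) were detected, meaning 1 RPKM or more in both uteri, against 58.4% of all genes. Another 27 (43.5%) were listed at 0 in both, against 23.4% of all genes. Of the others, 2 passed 1 RPKM in 1 uterus only and 17 had a value above 0 in at least 1 uterus but stayed under 1 RPKM in both. At 10 RPKM or more in both uteri were 6 serpins (9.68%), against 30.4% of all genes. The family held 0.190% ± 0.000967 (SD, n = 2) of the summed RPKM, and Serpinh1 made up 57.7% ± 3.90 of the family's share. Serpinf1 added 16.7% ± 2.01.

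By clade, the letter in the symbol, detection was uneven. Clade a, the secreted antitrypsin-like genes, had 4 of 25 members detected, and clade b, the intracellular ovalbumin-like genes, had 5 of 27. The lone members of clades d and h were detected, as were 1 of 2 in clade f and 1 of 2 in clade i. Clade e is left out of this listing. Serpinc1, the only member of clade c, was not. Nearest to the threshold by mean were Serpind1, Serpina1a and Serpine3 on the upper side, at means of 1.48, 1.18 and 1.15 RPKM, and Serpina9, Serpina3i and Serpina3h on the lower side, at 0.793, 0.494 and 0.356 RPKM.

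**Figure D1:**
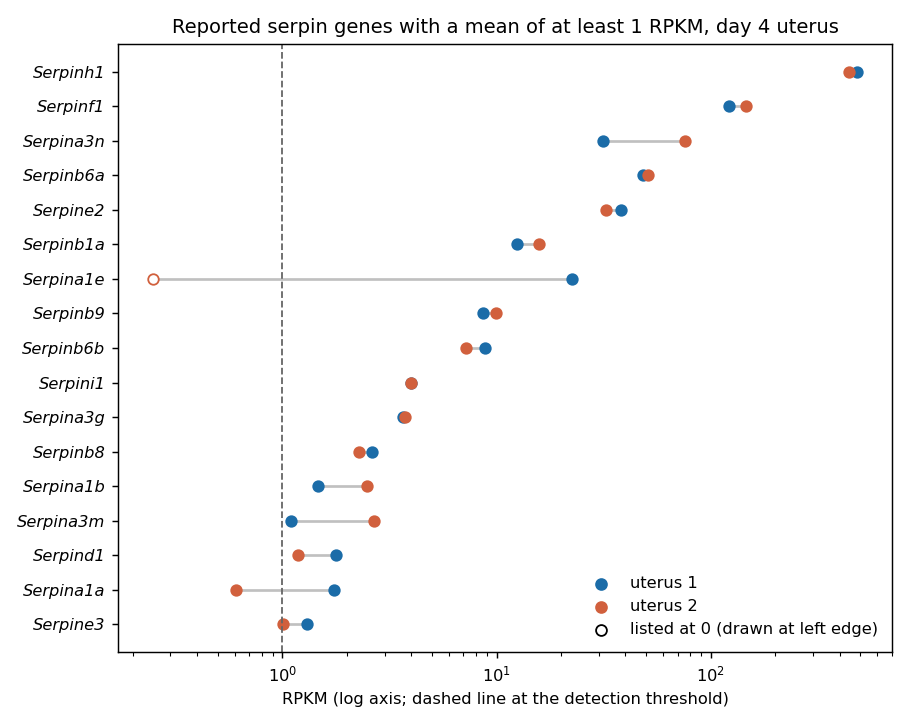
Level of the serpin genes reported here that averaged 1 RPKM or more, in uterus 1 (blue) and uterus 2 (orange), on a log axis in RPKM, with a dashed line at 1 RPKM and an open symbol for a listed 0. Serpinh1 lies highest at 484 and 444 RPKM, and the widest gaps are those of Serpina1e, Serpina1a, Serpina3m and Serpina3n.

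Serpinh1 (NM_009825, NCBIM37 chromosome 7, 106493885 to 106501749, minus strand) encodes HSP47, a chaperone of the endoplasmic reticulum that binds folding procollagen and inhibits no protease. Its level was 484 RPKM in uterus 1 against 444 RPKM in uterus 2, a mean of 464 ± 27.7 RPKM (SD, n = 2), rank 107 of the 22740 genes. The values rest on 4532 and 4623 reads, and the log2 ratio of -0.12 passed the exact binomial test at an adjusted p of 0.0022. At this depth a small difference exceeds counting error: the uteri were 1.09-fold apart. In whole tissue, fewer cells of a type and less RNA per cell cannot be told apart, here and for every gene below.

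The collagens that HSP47 assists were among the highest genes. All 6 of the collagens listed as its clients were detected, from Col5a1 at 110 and 94.9 RPKM to Col3a1 at 1908 and 1939 RPKM. In uterus 2, 4 of the 6 (Col1a1, Col1a2, Col4a1 and Col5a1) were lower by the exact binomial test and none was higher. Of all genes tested, 2.71% were lower and 2.26% higher. Those 4 collagens held at least 3394 reads in each uterus, whereas genes entered the test from 6 reads. The shares are thus not matched for depth, and small differences exceed counting error here too. Col1a2, Col4a1 and Col5a1 had log2 ratios of -0.20, -0.21 and -0.21, and 0 of the 6 collagens were 2-fold apart. Col1a1 lay at 1184 and 851 RPKM. The other procollagen folding genes did not share 1 direction: all 9 were detected, 2 were higher in uterus 2, 1 was lower, and P4hb, a subunit of prolyl 4-hydroxylase, lay at 316 and 317 RPKM.

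Serpinf1 (NM_011340, chromosome 11, 75223531 to 75236125, minus strand) encodes PEDF, a secreted factor that restrains the growth of blood vessels and likewise inhibits no protease. Its level was 122 RPKM in uterus 1 against 147 RPKM in uterus 2, 135 ± 17.2 RPKM (SD, n = 2), on 701 and 933 reads. Its log2 ratio of 0.26 passed the exact binomial test at an adjusted p of 0.0099. Serpinf2, which begins at 75245238 on the same chromosome and strand, encodes the plasmin inhibitor alpha 2-antiplasmin and held 0.238 RPKM in uterus 1 and was listed at 0 in uterus 2. The genes of clade f thus lay far apart, one second in the family and the other under 1 RPKM.

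Among the secreted inhibitors of thrombin and the plasminogen activators, Serpine2 stood highest. Serpine2 (NM_009255, chromosome 1, 79790896 to 79855240, minus strand) encodes protease nexin 1, which inhibits thrombin, urokinase and plasmin at the cell surface. It lay at 37.9 and 32.5 RPKM, 35.2 ± 3.87 RPKM (SD, n = 2), on 299 and 284 reads, and the uteri did not differ beyond counting error (exact binomial test, adjusted p = 0.348). Serpine3, a little-studied relative, was far lower and lay at 1.30 and 1.01 RPKM on 7 and 6 reads.

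The remaining inhibitors of clotting and plasminogen activation were low. Serpind1, the thrombin inhibitor heparin cofactor II, lay at 1.79 and 1.18 RPKM on 15 and 11 reads. Serpini1, the brain inhibitor neuroserpin that acts on tissue plasminogen activator, lay at 4.00 and 3.97 RPKM on 48 and 53 reads, the closest match between the uteri among serpins averaging 1 RPKM or more. Serpinc1, antithrombin, was listed at 0 in uterus 1 and lay at 0.435 RPKM in uterus 2 on 4 reads, and the protein C inhibitor Serpina5 was listed at 0 in both. By the exact binomial test none of Serpind1, Serpine2, Serpine3 and Serpini1 differed between the uteri, with adjusted p-values from 0.348 to 1.

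Their target proteases, and the receptors and cofactors listed with them, were uneven too. Of the plasminogen activation list, 3 of 4 genes were detected: Plat, tissue plasminogen activator, at 63.1 and 57.8 RPKM, Plau, urokinase, at 10.4 and 4.91 RPKM, and the urokinase receptor Plaur at 8.03 and 4.54 RPKM. Plg, which encodes plasminogen and is made mainly in liver, was listed at 0. Plau was lower in uterus 2, with a log2 ratio of -1.06 and an adjusted p of 0.00088 in the exact binomial test, whereas Serpine2, an inhibitor of urokinase, had a ratio of -0.22 with an adjusted p of 0.348. Of 10 coagulation genes, 2 were detected, the cofactor genes Thbd (thrombomodulin) at 39.2 and 41.2 RPKM and F3 (tissue factor) at 28.1 and 24.9 RPKM. The clotting proteases of the list, F2, F7, F9, F10, F11, F12, Proc and Klkb1, were all under 1 RPKM in both uteri. F2, which encodes prothrombin, was listed at 0. Of 9 clearance receptors and cofactors 8 were detected. Lrp1, which takes up serpin and protease complexes, lay at 96.2 and 84.5 RPKM, and its relative Lrp2 at 87.7 and 105 RPKM.

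**Figure D2:**
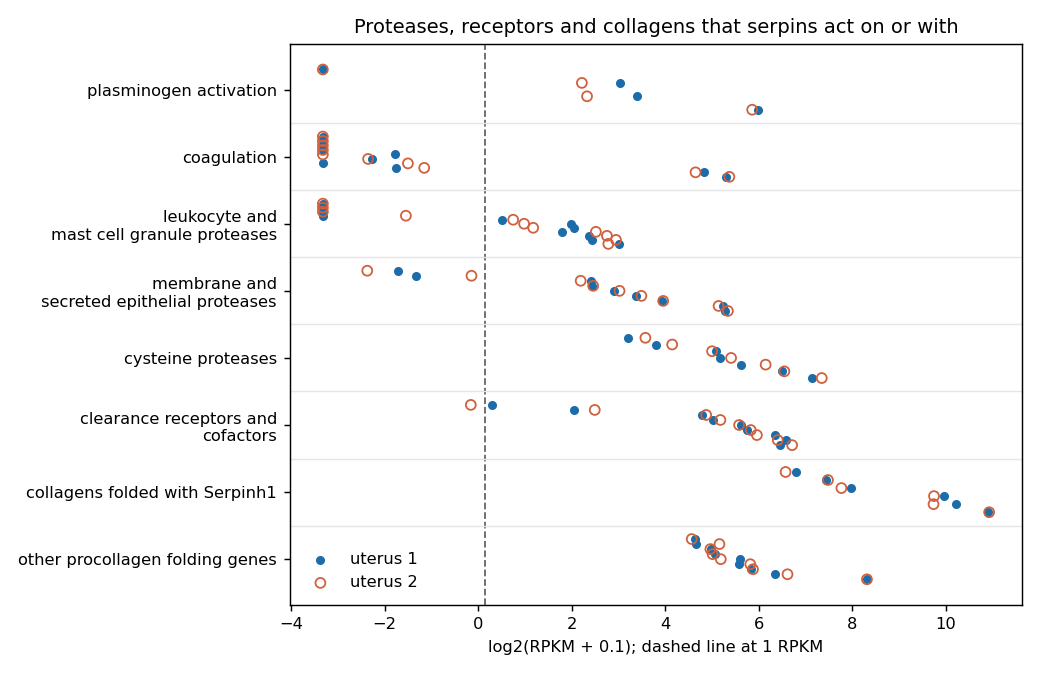
Level of the genes of 8 lists of serpin targets and partners, as log2(RPKM + 0.1), in uterus 1 (filled) and uterus 2 (open); each row of points is a list and the dashed line stands at 1 RPKM. The client collagens Col3a1, Col1a1 and Col1a2 lie furthest to the right, and P4hb of the folding list lies beyond the other client collagens. At a listed 0 in both sit 4 coagulation genes, 3 granule protease genes and Plg of the plasminogen list.

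Clade b serpins lack a secretion signal and mostly shield cells from their own or incoming proteases. Serpinb6a (NM_001164118, chromosome 13, 34009787 to 34027952, minus strand), known as an inhibitor of cathepsin G, was the highest at 48.3 and 51.0 RPKM, 49.7 ± 1.89 RPKM (SD, n = 2), on at least 175 and 205 reads. Serpinb1a, an inhibitor of neutrophil elastase and related enzymes, followed at 12.5 and 15.8 RPKM on 92 and 129 reads. Serpinb9, the granzyme B inhibitor of cytotoxic lymphocytes and their neighbours, lay at 8.68 and 9.96 RPKM on 113 and 144 reads, and Serpinb6b at 8.84 and 7.20 RPKM on 63 and 57 reads. Serpinb8, whose human counterpart inhibits furin, was lowest of the detected 5 at 2.62 and 2.29 RPKM on 33 and 32 reads. None of these 5 differed between the uteri by the exact binomial test, with adjusted p-values from 0.426 to 0.910.

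The other 22 clade b genes lay under 1 RPKM. Of these, 14 were listed at 0 in both uteri, and 8 held between 1 and 3 reads in at least 1 uterus. They include Serpinb2, known as PAI-2, at 0.127 and 0.230 RPKM, and Serpinb5, the epithelial gene maspin, listed at 0 in uterus 1 and at 0.275 RPKM in uterus 2. Serpinb3a, the mouse relative of squamous cell carcinoma antigen, was at 0.144 RPKM in uterus 2 on 1 read.

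The granule proteases that these serpins meet were led by those of mast cells. Of 11 leukocyte and mast cell granule proteases 7 were detected, and the highest were the mast cell chymases Cma1 at 7.999 and 6.77 RPKM and Mcpt4 at 5.27 and 7.59 RPKM. Gzmb, the target of Serpinb9, lay at 4.05 and 2.16 RPKM. The neutrophil genes Elane and Ctsg were listed at 0 in both, and Prtn3 held 1 read. The cysteine proteases, met by a few serpins in the cytosol or lysosome, were higher: all 7 were detected, led by Ctsb at 141 and 162 RPKM, and Ctsb and Ctss were higher in uterus 2 by the exact binomial test. All but Klk1 and Prss35 of the 9 membrane and secreted epithelial proteases were detected, led by Htra1 at 38.5 and 40.3 RPKM.

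Among serpins averaging at least 1 RPKM, those that differed most between the animals were clade a genes. They lay in a pair of subfamilies of copied genes on chromosome 12, Serpina1 and Serpina3. The Serpina1 part rests on Serpina1e and Serpina1a, which were under 1 RPKM in uterus 2 and reached that average through uterus 1. In the Serpina3 subfamily, the mouse counterparts of human alpha 1-antichymotrypsin, Serpina3n (NM_009252, 105644918 to 105652539, plus strand) dominated. It encodes a secreted acute-phase inhibitor of granzyme B and leukocyte proteases. Its level was 31.4 RPKM in uterus 1 against 76.1 RPKM in uterus 2, 2.42-fold apart, on 251 and 675 reads. The log2 ratio of 1.27 passed the exact binomial test at an adjusted p of 1.6e-33, and it was the tenth largest toward uterus 2, rank 10 among the 7311 genes averaging 10 RPKM or more.

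The other Serpina3 copies were low. Serpina3g, the cytosolic cathepsin inhibitor Spi2A, lay at 3.64 and 3.75 RPKM on at least 7 and 8 reads. In the authors' annotation its span begins at the start of Serpina3f and shares 6586 bases with that gene, so its reads are uncertain. Serpina3m lay at 1.10 and 2.69 RPKM on 7 and 19 reads, a log2 ratio of 1.22 that did not pass the exact binomial test (adjusted p = 0.306). Serpina3f held 1 and 4 reads, at 0.114 and 0.410 RPKM. Serpina3i held 2 and 7 reads, at 0.238 and 0.750 RPKM. The non-coding Serpina3h held 2 and 4 reads, at 0.254 and 0.458 RPKM. Serpina3a, Serpina3b, Serpina3c, Serpina3j and Serpina3k were listed at 0 in both. All 6 Serpina3 genes with reads were higher in uterus 2, but Serpina3n alone differed beyond counting error, and copies that share sequence are not independent counts.

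The stretch that codes for the reactive loop shows how far these copies have diverged. It was read from the coding sequences on NCBIM37 and runs from the hinge of the loop to the base before the conserved serpin signature, 69 bases in each, all within the last of 5 annotated exons. It is shown for the 3 Serpina3 genes averaging 1 RPKM or more, and capitals mark the 35 positions at which they are not all alike.
Serpina3n: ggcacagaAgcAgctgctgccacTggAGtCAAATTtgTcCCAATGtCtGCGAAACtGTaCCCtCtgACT
Serpina3m: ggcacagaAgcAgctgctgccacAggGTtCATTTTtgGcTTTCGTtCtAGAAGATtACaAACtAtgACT
Serpina3g: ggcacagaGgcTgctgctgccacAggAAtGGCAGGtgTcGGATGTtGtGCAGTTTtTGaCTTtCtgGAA
They lie on the plus strand of chromosome 12, at 105651658 to 105651726 for Serpina3n, 105631979 to 105632047 for Serpina3m and 105479282 to 105479350 for Serpina3g. The hinge end of the stretch is nearly common to all 3, and the differences crowd toward the other end. Over whole coding sequences, Serpina3n and Serpina3m shared 85.2% of bases. Of the 50-base windows in the Serpina3n coding sequence, 10.8% occurred letter for letter in another serpin, and of the 100-base windows 0.0864%. The read length is not given in the sources used here.

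The Serpina1 subfamily encodes the mouse copies of alpha 1-antitrypsin, the main elastase inhibitor of plasma, made largely in liver. Its 5 copies are nearly alike, with 96.3% to 98.5% of coding bases identical in all 10 pairs. They also vary in the same loop stretch, here 60 bases in the last annotated exon of each gene, shown because it is the stretch that meets the protease and holds a larger share of variable bases than the rest. Capitals mark the positions at which the 5 are not all alike.
Serpina1a: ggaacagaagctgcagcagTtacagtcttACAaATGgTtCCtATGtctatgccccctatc
Serpina1b: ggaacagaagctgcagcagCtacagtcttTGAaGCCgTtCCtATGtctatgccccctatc
Serpina1c: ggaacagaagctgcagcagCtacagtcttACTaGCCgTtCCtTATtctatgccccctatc
Serpina1d: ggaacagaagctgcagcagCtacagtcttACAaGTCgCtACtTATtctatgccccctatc
Serpina1e: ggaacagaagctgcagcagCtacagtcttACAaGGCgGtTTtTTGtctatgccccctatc
Of these 60 bases 13 (21.7%) vary among the copies, against 73 of the other 1182 coding bases (6.18%). On the minus strand of chromosome 12 the stretches lie at 105091981 to 105092040 (Serpina1a), 104966548 to 104966607 (Serpina1b), 105133318 to 105133377 (Serpina1c), 105001986 to 105002045 (Serpina1d) and 105185324 to 105185383 (Serpina1e).

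Among these copies Serpina1e (NM_009247, 105185142 to 105195107, minus strand) had the highest value and the widest gap between the libraries. It lay at 22.4 RPKM in uterus 1, on 118 reads (95% Poisson interval 97.7 to 141), and was listed at 0 in uterus 2. The exact binomial test, which takes the listed 0 as 0 reads, gave an adjusted p of 5.5e-36. Rpl26 was listed at 0 in both uteri, whereas Serpina1e was listed at 0 in uterus 2 only. Whether that 0 is a failed estimate was not tested, so the counts between the libraries below are also given without this gene. The other 4 copies together held 24 reads in uterus 1 and 23 in uterus 2. Serpina1a lay at 1.75 and 0.606 RPKM on 13 and 5 reads, and Serpina1b at 1.46 and 2.47 RPKM on 8 and 15 reads. Neither differed beyond counting error in the exact binomial test, with adjusted p-values of 0.330 and 0.705. Serpina1c held 2 and 1 reads, at 0.366 and 0.165 RPKM, and Serpina1d held 1 and 2 reads, at 0.181 and 0.326 RPKM.

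How sharply reads separate these copies depends on where they fall. Of the 50-base windows in the Serpina1e coding sequence, 39.0% (465 of 1193) occurred letter for letter in another Serpina1 copy, the lowest share of the 5. For Serpina1a the share was 74.4%, for Serpina1b 44.8%, for Serpina1c 74.6% and for Serpina1d 51.1%. Serpina1e also had the most bases found in no other copy, 24 over its coding sequence and 4 in the loop stretch. How the authors treated reads that match several copies is not given in the sources used here. Of the 10 liver markers, 8 were listed at 0 in uterus 1, Alb, Apoa1, Apoa2 and Fgb among them, and the list summed to 10.3 RPKM there and 9.63 RPKM in uterus 2. All of the sum in uterus 1 came from Cyp2e1 at 6.01 RPKM and Ttr at 4.27 RPKM. The part of liver transcripts in the Serpina1e value was not tested.

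**Figure D3:**
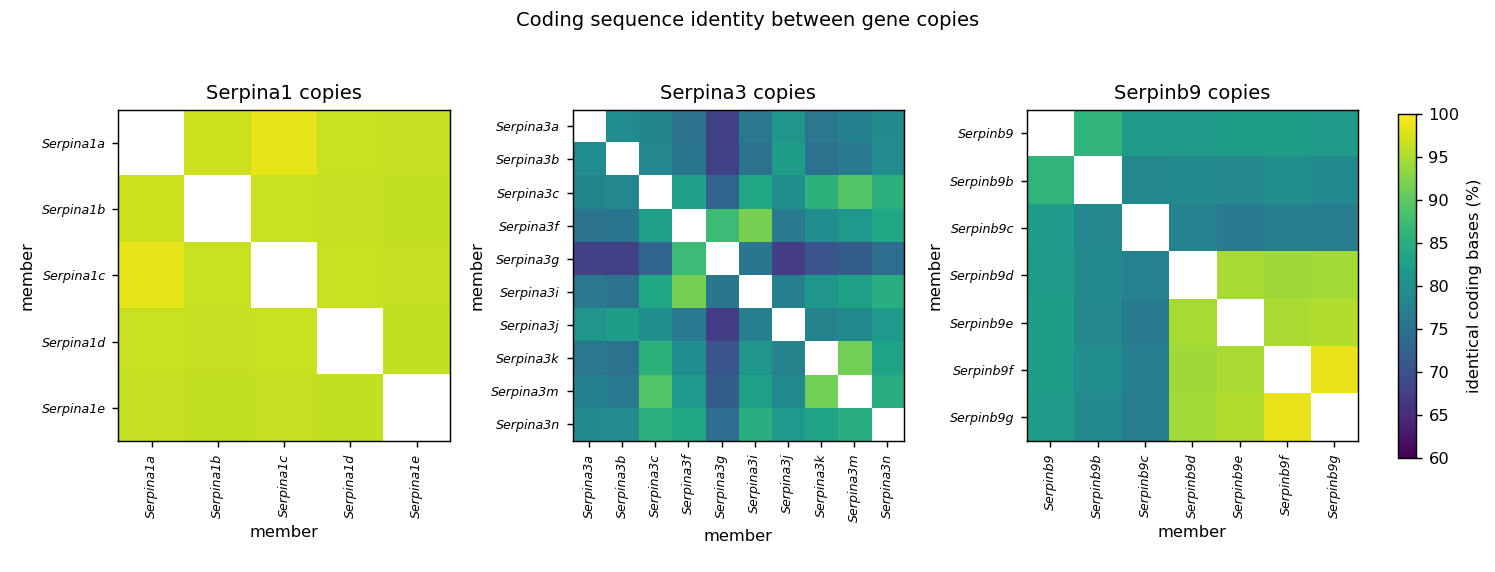
Share of identical coding bases between gene copies of the Serpina1, Serpina3 and Serpinb9 subfamilies, in percent of the shorter sequence, with the diagonal left blank. Serpina1 copies are alike throughout (96.3% to 98.5%), and Serpina3 copies range from 67.3% to 91.9%. The low end comes from pairs with Serpina3g, whose annotated coding sequence has only 747 bases. Without Serpina3g the lowest Serpina3 pair is at 74.9%. Serpinb9d to Serpinb9g form a block of close copies next to the more distant Serpinb9.

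The remaining clade a genes were at or near 0. Serpina9, a serpin of germinal centre B cells, lay at 0.616 and 0.971 RPKM on at least 4 and 7 reads. Serpina10, the protein Z-dependent inhibitor, held 1 read in uterus 2. The hormone carriers Serpina6 (corticosteroid-binding globulin) and Serpina7 (thyroxine-binding globulin), the adipokine Serpina12, Serpina11, Serpina1f and the pseudogene Serpina4-ps1 were listed at 0 in both uteri.

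By position the family fell into 3 clusters, with 11 genes elsewhere. The chromosome 12 cluster (104854885 to 105652539) holds 24 clade a genes, of which 4 were detected, and Serpina3n at its far end was the highest. The chromosome 1 cluster (108757757 to 109505555) holds 12 clade b genes, and Serpinb8, the last of them, was the only one detected. The chromosome 13 cluster (32933961 to 34027952) holds 15 clade b genes, of which 4 were detected: Serpinb1a at the start, Serpinb6b and Serpinb9 near it, and Serpinb6a at the opposite end. Between Serpinb9 and Serpinb6a no member reached 1 RPKM, including the close copies Serpinb9d to Serpinb9g, all listed at 0. Of the 11 genes outside these clusters 7 were detected, and they held 654 and 632 of the family's 799 and 808 RPKM.

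**Figure D4:**
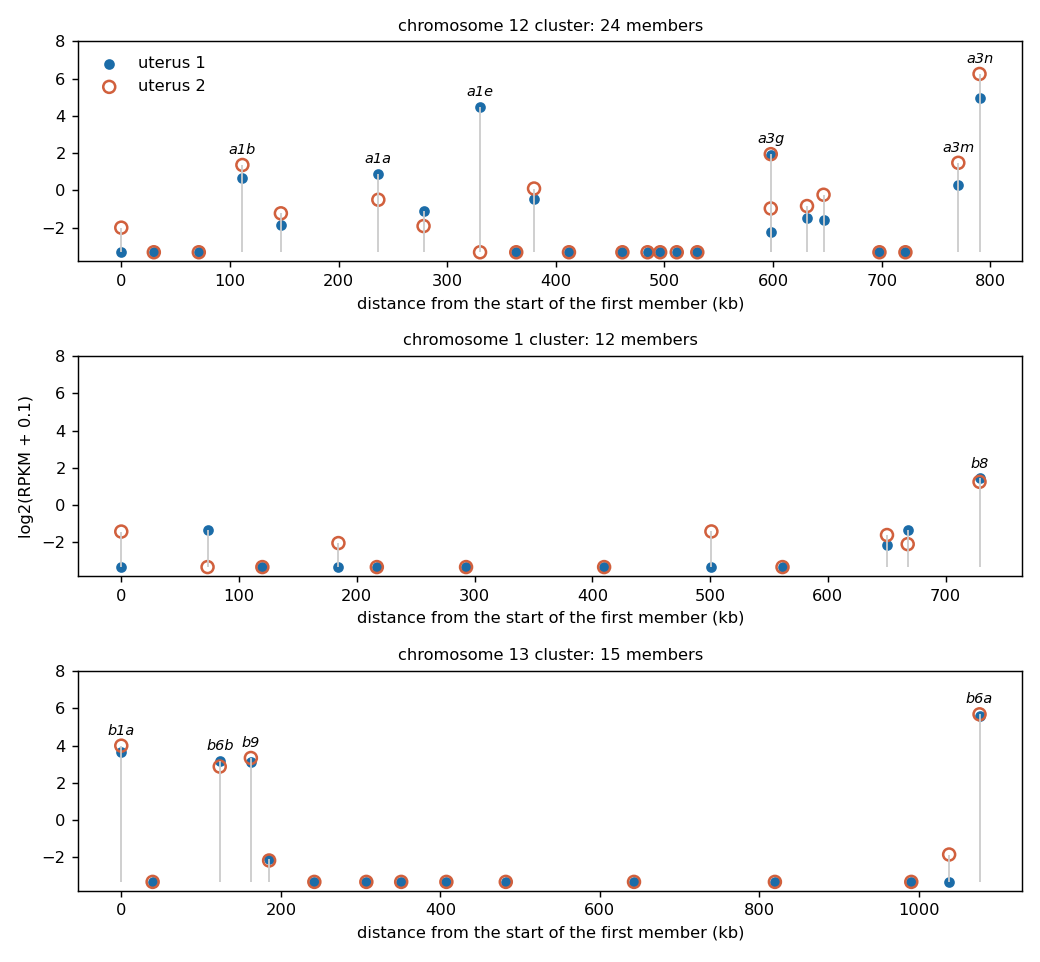
Level of each serpin gene, as log2(RPKM + 0.1), against its distance in kb from the start of the first member of its cluster, in uterus 1 (filled) and uterus 2 (open); genes averaging 1 RPKM or more carry their clade letter and number. Detected genes sit toward the ends of the chromosome 13 cluster and at the far end of the chromosome 1 cluster, with runs of genes at the floor between them.

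Between the 2 animals, the differences of at least 2-fold among serpins averaging 1 RPKM or more lay in the copied clade a genes. Of the 18 serpins averaging 1 RPKM or more, 4 (22.2%) were at least 2-fold apart, against 2.6% of all 13647 such genes. Of these, 2 were higher in uterus 2 (Serpina3n and Serpina3m), against 1.18% of all genes. Another 2 were higher in uterus 1 (Serpina1e and Serpina1a), against 1.42%. Serpina1e and Serpina1a were under 1 RPKM in uterus 2 and passed the filter on the mean through uterus 1. Serpina1a and Serpina3m did not pass the exact binomial test, with adjusted p-values of 0.330 and 0.306. Serpina3n alone was both at 1 RPKM or more in each uterus and beyond counting error. With a pseudocount of 1 RPKM Serpina3m and Serpina1a fell under 2-fold and 2 remained in the count. Without Serpina1e the count was 3 of 17. Outside the Serpina1 and Serpina3 copies, 0 of 12 serpins were 2-fold apart. The exact binomial test called 4 of 21 serpins (19.0%), against 4.97% of all genes tested. Serpina3n and Serpinf1 were higher in uterus 2, Serpina1e and Serpinh1 higher in uterus 1. Without Serpina1e the test called 3 of 20. Serpinh1 and Serpinf1 had the most reads of the family and were 1.09-fold and 1.20-fold apart. The test reaches smaller differences where reads are many, and the shares are not matched for depth. The median log2 ratio over the 18 genes was -0.06, against 0.0007 over all genes, and its sign depended on the filter, so no direction is given for the family.

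**Figure D5:**
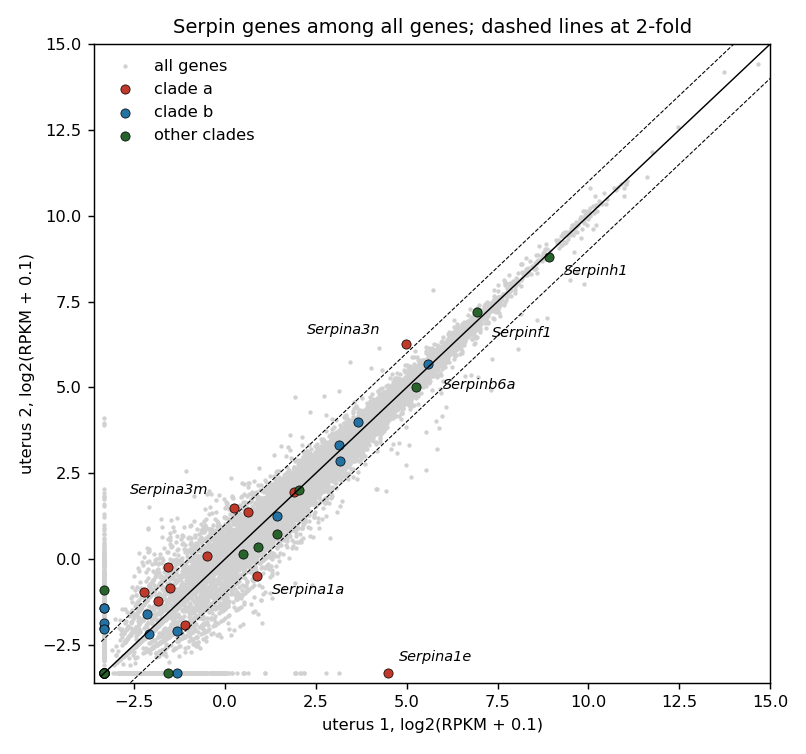
Each gene's level in uterus 1 (horizontal) against uterus 2 (vertical), as log2(RPKM + 0.1), with all genes in grey and serpins coloured by clade; the solid line marks equality and the dashed lines 2-fold. Most expressed serpins lie along the line, while Serpina3n lies above the upper dashed line and Serpina1e on the floor of uterus 2.

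Beside the Serpina3n values stand those of the cell type markers. The summed level of the plasma cell list (Igj, Xbp1, Mzb1 and Sdc1, the last also in the cofactor list) was 170 RPKM in the first uterus and 399 RPKM in the other, with 2 of its 4 genes (Igj and Xbp1) higher in uterus 2 by the exact binomial test, against 2.26% of all genes. Most of that gap came from Igj, the immunoglobulin joining chain, at 53.2 and 229.7 RPKM, while Xbp1 lay at 79.0 and 124 RPKM and Sdc1 at 32.5 and 36.1 RPKM. The gland list (Spink3, Foxa2, Prss28 and Prss29) summed to 53.6 and 83.0 RPKM, with 0 of 4 called. The leukocyte list summed to 57.0 and 59.0 RPKM, the stroma list to 4364 and 4278 RPKM and the epithelium list to 244 and 279 RPKM. Of the 6 stroma markers Dcn and Vim were higher in uterus 2 by the exact binomial test and Col1a1 lower, and of the 5 epithelium markers Krt18 was higher. The stroma sum was lower in uterus 2 through Col1a1, the other 5 markers having higher values there. The part of these cell types in the Serpina3n values was not tested.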

How the data were processed

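RNA of whole uterus from 2 mice was purified by poly-A and sequenced on a HiSeq2500, per the series' design text. The authors deposited RPKM values, and the submitters' processing notes name TopHat and build mm9. The annotation release, read length, use of strand and treatment of reads with several matches are not given in the sources used here. Both deposited tables held identical values for shared genes. Positions count from 1 on NCBIM37 (mm9).

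Reads were recovered from RPKM: for genes of 1 exon, whose length the annotation gives, the values came out as whole reads within 0.01 read (298 of 298 in uterus 1, 301 of 301 in uterus 2) at scaling totals of 3834174 and 4256101. For other genes the reads were the whole numbers giving a whole transcript length, with any common factor chosen by closeness to GENCODE M1 lengths. The answer was unique for 28 of 35 serpins with reads. Of the other 7, Serpinb6a, Serpina3g and Serpina9 are printed with the smallest possible reads, as "at least". Intervals cover counting error only, as PCR copies are not independent.

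The exact binomial test (scipy 1.17.1, statsmodels 0.14.6) used at least 6 reads in sum and was tested on simulated data. Coding sequences of 59 members came from GENCODE M1 and were aligned with Biopython 1.88. Coding sequence stood in for the planned protein comparison, since protein sequence was not used here. Every serpin with a mean of at least 1 RPKM is named except 1, which enters the counts and is not reported here, as are all Serpina1 and Serpina3 copies, further low members are examples chosen after their values were seen, and the top genes of each list are given. Nothing in the labels gives a batch. The members and lists were chosen with earlier results of these data known. Alternatives covered thresholds, pseudocount, filter, scale, read recovery and each library.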

Additional observations from a re-analysis of the deposited data

How the results depend on the processing

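The 16 detected serpins became 18 at 0.5 RPKM (62.4% of all genes), 11 at 2 RPKM (53.2%) and 18 on the TPM scale (63.4%), and 12 of 45 (58.4%) without the Serpina1 and Serpina3 copies, Serpina1f left out with them, an alternative chosen after seeing the data. Leaving out either library gave 16 to 18 (60% and 59.8% of all genes). The family's share was 0.223% with NM_ identifiers only, where fewer genes enter the total, and 0.189% to 0.191% in either library. The count at least 2-fold apart was 2 with a pseudocount of 1 (1.12% of all genes), 14 of 35 with no filter (10.6%), 2 of 9 at a mean of at least 5 RPKM (0.722%), 5 of 20 on the TPM scale (4.93%), and 0 of 12 without those copies. The median log2 ratio was 0.197 with no filter and 0.0775 at a mean of at least 5 RPKM. The exact binomial test called 4 of 21 serpins with the smallest possible reads (3.9% of all genes), 4 of 17 with at least 20 reads in sum (5.7%), 4 of 21 with the expected share taken from the scaling totals (4.95%, added later), and 2 of 13 (4.97%) without the copies, Serpinh1 and Serpinf1. The counts without Serpina1e were also added after seeing the data. Fewer members enter where the copies are left out. Of 80 single-gene log2 ratios 76 kept their side of 2-fold and 0 reversed, and 54 of 54 adjusted p-values kept their call. No paired analysis was possible because every sample belongs to 1 group. Serpins with few reads, such as Serpine3 and Serpind1, cannot show differences short of several-fold at this depth.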

Other observations

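Genes beside the serpin clusters were read as values. Before the chromosome 1 cluster, Vps4b lay at 30.6 and 30.8 RPKM, and after it Cdh7 was listed at 0. Before the chromosome 12 cluster, Ppp4r4 lay at 1.27 and 1.34 RPKM at a distance of 2.84 kb, and after it Gsc was listed at 0, 56.9 kb beyond the highest gene of the cluster, Serpina3n. The chromosome 13 cluster lay between Wrnip1 at 16.7 and 15.7 RPKM and Nqo2 at 8.25 and 7.38 RPKM. No other gene of the table lay wholly inside any of the 3 clusters. Serping1, left out of the family here, lay at 107 and 123 RPKM, between Serpinf1 and the next serpin by level.

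Serpinb9f and Serpinb9g shared 98.7% of coding bases and were both listed at 0. Serpinb9 lay at 8.68 and 9.96 RPKM and shared 1.21% of its 50-base windows with another serpin. Low sharing did not always go with a higher level. Serpinb9b shared 1.20% of these windows and lay at 0.135 and 0.122 RPKM, and Serpinb9c shared 0% and was listed at 0 in both. Serpina1a and Serpina1c were the closest Serpina1 pair at 98.5% identity, and held 13 and 5 reads against 2 and 1.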
